A study of Homo sapiens with 6 samples.

Results

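Lysosomes are the acidic organelles in which cells break down proteins, glycans and lipids, and 51 genes of this system were followed in libraries of OCI-AML2 cells labelled as an IKZF1 knockout and in their controls. The genes were listed by name for their textbook roles: 9 cathepsins and other lysosomal proteases, 3 soluble cofactors, 9 glycosidases, 4 sulfatases, 4 lipid hydrolases, 8 membrane proteins, 8 subunits of the proton pump, 3 sorting receptors and 3 transcription factors. All 51 were found among the 58233 gene identifiers of the count table, and 48 were abundant enough to be tested. The 3 others were LGMN, which encodes the protease legumain, with 11 counts over the 6 libraries, CD68, which encodes a membrane glycoprotein of macrophages, with 9 counts, and SGSH, which encodes a sulfatase of heparan sulfate, with 0 counts in every library. CD68 shares 81.7% of its exon positions with another gene on the same strand, so its value is uncertain. SGSH shares 2.4%, with genes on the opposite strand that had 1 and 0 counts.

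OCI-AML2 is an established human acute myeloid leukaemia cell line, and the IKZF1 gene makes Ikaros, a DNA-binding regulator of lymphoid and myeloid development. Polyadenylated RNA was sequenced from 3 libraries labelled IKZF1-ko, which the labels describe as CRISPR knockout cells, and from 3 libraries labelled NT control, which carry a non-targeting control, and the study asked which genes change on loss of IKZF1. The labels describe the replicates both as separate lines and as triplicate RNA preparations, so the spread between libraries of a group may be technical. A p-value here sets the group difference only against that spread. In fits that take account of a division between libraries, described below, it is only the spread left within each side of that division. The number of clones behind the knockout is not given in the sources used here.

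In textbook accounts, most soluble lysosomal enzymes are made in the endoplasmic reticulum, tagged with mannose phosphate and delivered to endosomes by sorting receptors, while a V-type ATPase pumps protons into the organelle so that the enzymes can work. Membrane proteins such as LAMP1 and LAMP2 line the lysosome and shield it from its own contents. The transcription factors TFEB, TFE3 and MITF bind a short palindromic element in the promoters of many lysosomal genes, which holds the E-box CACGTG.

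Because this E-box ties the members to 1 known regulatory sequence, promoters were searched for it in RefSeq windows of 300 bases, 250 before and 50 after the annotated start (GRCh38.p14). At least 1 window was found for 36 of the 51 members. A member was counted where any of its windows held the motif, while the background was counted per window. The shares compared below are therefore not of the same unit, and a gene with several windows is counted more easily. The motif CACGTG, which reads the same on both strands, was present in 10 of these 36 (27.8%), compared with 7.26% of all 35116 windows in the table. The longer palindrome TCACGTGA, which contains the E-box, was present in 7 of 36 members (19.4%) and in 0.98% of all windows. The 4 windows below are shown because 3 belong to genes that fell in the IKZF1-ko libraries (CTSA, LAMP1 and ATP6V0D1) and 1 to a gene that rose (GAA), and all 4 hold the E-box, marked in capitals. They cover chr20:45891085-45891384 on the plus strand for CTSA, chr13:113296989-113297288 on the plus strand for LAMP1, chr16:67481108-67481407 on the minus strand for ATP6V0D1 and chr17:80101331-80101630 on the plus strand for GAA. Each is written 5′ to 3′ on the strand of its gene.
CTSA: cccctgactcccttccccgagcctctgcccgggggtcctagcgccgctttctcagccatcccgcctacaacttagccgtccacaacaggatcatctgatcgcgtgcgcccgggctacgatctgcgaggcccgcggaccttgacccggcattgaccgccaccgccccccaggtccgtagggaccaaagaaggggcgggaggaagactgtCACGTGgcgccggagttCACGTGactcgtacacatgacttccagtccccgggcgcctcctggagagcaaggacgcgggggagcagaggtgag
LAMP1: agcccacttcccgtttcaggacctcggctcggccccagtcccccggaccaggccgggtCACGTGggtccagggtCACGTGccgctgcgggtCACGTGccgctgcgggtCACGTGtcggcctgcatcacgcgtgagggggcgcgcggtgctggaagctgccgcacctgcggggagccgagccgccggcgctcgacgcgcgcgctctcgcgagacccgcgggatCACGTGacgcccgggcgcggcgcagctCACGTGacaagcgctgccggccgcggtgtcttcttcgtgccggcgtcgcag
ATP6V0D1: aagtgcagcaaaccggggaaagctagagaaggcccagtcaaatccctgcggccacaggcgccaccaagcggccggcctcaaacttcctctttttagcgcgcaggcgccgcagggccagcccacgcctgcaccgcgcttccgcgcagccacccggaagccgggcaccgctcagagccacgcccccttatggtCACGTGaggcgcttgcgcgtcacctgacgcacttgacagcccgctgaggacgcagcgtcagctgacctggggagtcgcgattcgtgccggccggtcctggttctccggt
GAA: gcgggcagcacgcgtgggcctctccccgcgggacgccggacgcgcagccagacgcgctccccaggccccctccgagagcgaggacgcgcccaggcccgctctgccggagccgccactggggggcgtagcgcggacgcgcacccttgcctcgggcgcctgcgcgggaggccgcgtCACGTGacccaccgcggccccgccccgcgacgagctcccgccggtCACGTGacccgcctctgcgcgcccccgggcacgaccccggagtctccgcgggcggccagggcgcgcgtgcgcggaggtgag

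The LAMP1 window holds 6 copies of the E-box, the CTSA and GAA windows 2 each and the ATP6V0D1 window 1. Among members with a window, the E-box was present in 5 of the 8 that fell (CTSA, CTSD, ARSB, LAMP1 and ATP6V0D1), in 1 of the 4 that rose (GAA) and in 4 of the 24 others (CLN3, IGF2R, M6PR and MCOLN1). TCACGTGA was present in 3 of the 8 that fell, 1 of the 4 that rose and 3 of the 24 others. Directions here are those of the fit with a library term described below. CTSD and ATP6V0D1 did not pass in a further fit on 4 libraries alone. The split of the motifs by direction was not tested. These are matches of letters and not measured binding sites.

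The libraries held between 11300519 and 18214328 counts each. The first principal component held 67.6% of the variance of log2 CPM, that is counts scaled to a common library size, and it set IKZF1-ko replicate 1 and NT control replicate 2 apart from the other 4 libraries, in both groups at once. Known HIF target genes moved with this division. Their summed level was 2045 CPM in IKZF1-ko replicate 1 and 1774 CPM in NT control replicate 2. It was 779.5 and 766 CPM in IKZF1-ko replicates 2 and 3, against 663.5 and 656.7 CPM in NT control replicates 1 and 3. The IKZF1-ko values were thus higher on both sides of the division. With the term for this division described below, 6 of 11 tested HIF targets rose and 0 fell, beside 6.93% and 6.62% of all genes. In the 4 libraries alone 5 of 10 rose and 0 fell, beside 7.64% and 7.1% of all genes. Of the 6 that rose with the term, VEGFA also passed with 1 surrogate variable in its place (0.37, edgeR adjusted p = 0.00426). The others did not pass there: log2 fold changes were 0.20 for ENO2, 0.10 for P4HA1, -0.07 for NDRG1, -0.08 for BNIP3 and -0.17 for PFKFB4. The part of HIF targets in the results below was not tested. IKZF1 mRNA itself was higher in the libraries labelled IKZF1-ko, with 421, 426 and 436 CPM in replicates 1 to 3, against 331, 292 and 334 CPM in the NT control libraries (log2 fold change 0.43, edgeR adjusted p = 1.23e-05 with the term for this division described below). Counts of a whole gene do not show an edit or the protein, so they do not check these labels. Of 12 macrophage markers 3 passed the filter on low counts, and CD163, FCGR3A, C1QA, C1QB and C1QC were at 0 in every library. The macrophage markers together reached 10.9, 20.0 and 17.9 CPM in the IKZF1-ko libraries, against 7.21, 3.48 and 6.04 CPM in the NT control libraries. Most of this difference was CSF1R, with 7.82, 16.8 and 14.1 CPM in IKZF1-ko against 4.58, 1.30 and 3.85 CPM in NT control. With the term for the division, CSF1R passed the test. GPNMB (0.97, edgeR adjusted p = 0.0654) and MSR1 (-0.07, edgeR adjusted p = 0.956) did not. The part of these markers in the results was not tested. In bulk RNA, fewer cells of a type and less RNA per cell cannot be told apart.

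Levels were set per kilobase of exon so that genes can be compared. The length joins all annotated exons of a gene and is not that of the transcript expressed, so the order is approximate. The saposin precursor PSAP stood highest with 111 CPM per kilobase over all libraries, followed by the granulin precursor GRN with 99.7, the mannose phosphate receptor M6PR with 68.5 and the palmitoyl thioesterase PPT1 with 58.8. At the low end, MITF had 0.912 and CLN3, a membrane protein of juvenile neuronal ceroid lipofuscinosis, had 0.12 CPM per kilobase. CLN3 shares 25.2% of its exon positions with a gene on the same strand. M6PR and PPT1 share 29.3% and 23.4% with genes on the opposite strand, so the levels of all of these are less certain. A mean level of at least 10 CPM was reached by 44 of the 51 members. PSAP had 107 CPM per kilobase in the IKZF1-ko libraries and 114 in the NT control libraries. GRN had 110.2 CPM per kilobase in the IKZF1-ko libraries and 89.2 in the NT control libraries, so the order of these highest members differed between the groups, although PSAP did not pass the test described next.

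**Figure D1:**
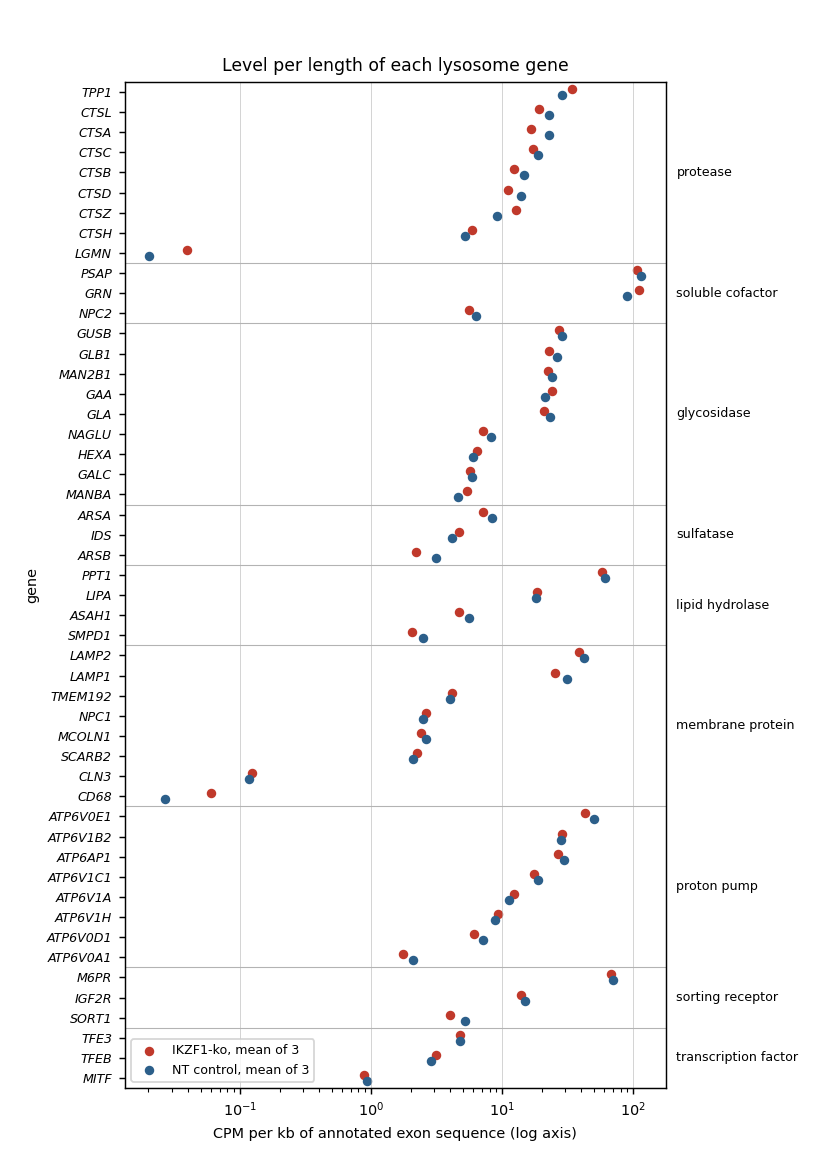
Level of each member in CPM per kilobase of exon on a log axis, as group means of 3 libraries (IKZF1-ko and NT control), with members grouped by role; SGSH, at 0 counts, is not drawn. PSAP and GRN stand highest near 100 and CLN3, CD68 and LGMN lie at or below 0.12.

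With group as the only term, no gene of the 13028 tested passed edgeR's quasi-likelihood test at an adjusted p of 0.05, and hence 0 of the 48 members (background 0% rising and 0% falling). At an unadjusted p under 0.05 stood 3 members, CTSA, GRN and CTSD, beside 3.5% of all genes. With the same design DESeq2 called 58 rising and 13 falling genes and limma-voom 1 rising gene, and 0 members were among them. The division between the libraries enters this fit as spread within the groups: in 43 of 48 members (89.6%) the range within a group was wider than the difference between the group means, compared with 94.6% of all genes.

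When the division between the libraries was added as a term, 15 members passed the test, 4 rising and 11 falling in the IKZF1-ko libraries. The members that rose were CTSZ, TPP1, GRN and GAA, which are 8.33% of the members tested, compared with 6.93% of all genes. The members that fell were CTSA, CTSB, CTSD, CTSL, GLB1, ARSB, ASAH1, LAMP1, ATP6V0D1, ATP6V0E1 and SORT1, which are 22.9% of the members tested, compared with 6.62% of all genes. The share rising thus lay near the background and the share falling above it. The background, here and below, was not matched to the members in level. The changes were small: the largest was a fold of 1.44 (ARSB, lower), and none of the 15 reached 1.5-fold. Of the 15, CTSA, CTSD, TPP1, GLB1 and ASAH1 share exon positions with another gene, on the same strand in CTSD (41.7%), TPP1 (11.6%) and GLB1 (1.9%), so their values are less certain. The median log2 fold change was -0.08 over the 48 members and 0.00 over all genes, and 30 of 48 members had a negative value. Over all genes this fit called 903 rising and 862 falling. Without IKZF1-ko replicate 3 it called 2 rising and 7 falling members, among 464 rising and 347 falling genes in all. Without NT control replicate 3 it called 7 falling members, among 606 falling genes. Where 1 surrogate variable replaced the division, 2 members rose and 10 fell, among 570 rising and 460 falling genes.

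In the 4 libraries on the same side of the division (IKZF1-ko replicates 2 and 3, NT control replicates 1 and 3), 5 members rose (10.4%) and 13 fell (27.1%), compared with 7.64% of all genes rising and 7.1% falling. Both fits called 13 members, all of the 15 except CTSD and ATP6V0D1. CTSC, GLA, HEXA, LAMP2 and ATP6V0A1 passed in the 4 libraries alone. Over all genes 919 fell in the 4 libraries. DESeq2 on them called 6 falling members among 375 falling genes, and without NT control replicate 3 edgeR called 8 among 620. Every IKZF1-ko library, in these 4 and in all 6, was deeper than every NT control library (at least 15250588 counts, against at most 14983528). The part of depth in these counts, and in those of the other fits, was not tested. The 2 libraries on the other side have no replicate, so IKZF1-ko replicate 1 minus NT control replicate 2 is a single difference: all 15 called members had in it the sign they had in the 4 libraries, and over the 48 tested members 40 (83.3%) did, compared with 63% of all genes. Both sets of libraries enter the fit with the added term, so this is a description of that fit.

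Without any model, the 3 IKZF1-ko values did not overlap the 3 NT control values in 9 members. CTSH and GRN were higher in every IKZF1-ko library (4.17% of members, compared with 5.28% of all genes). CTSA, CTSD, CTSL, GLA, GLB1, ATP6V0A1 and ATP6V0E1 were lower in every IKZF1-ko library (14.6% of members, compared with 4.07% of all genes). Summed over all 51 members, the level was 4540, 4530 and 4520 CPM in the IKZF1-ko libraries and 4639, 4758 and 4644 CPM in the NT control libraries. This was 0.453% of all scaled counts in IKZF1-ko and 0.468% in NT control, and no test was made of the sum.

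**Figure D2:**
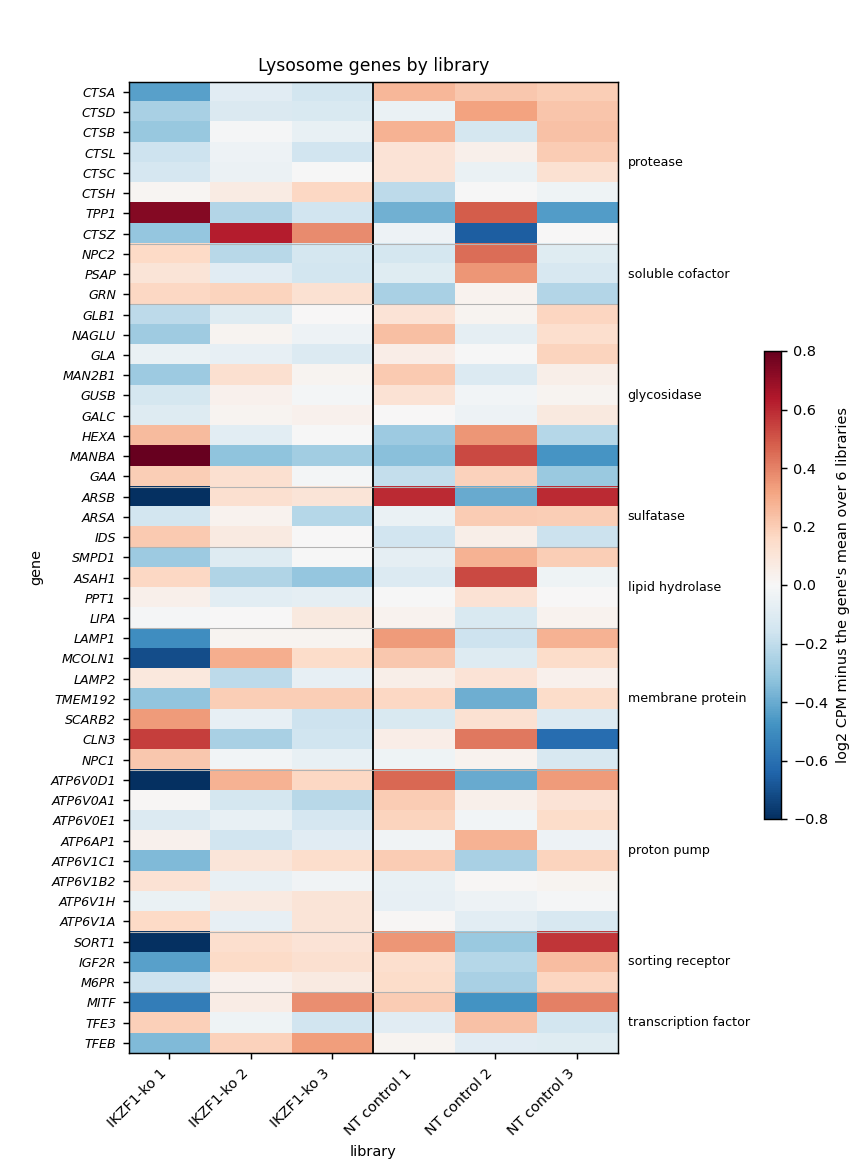
Heat map of the 48 tested members (rows, grouped by role) in the 6 libraries (columns, IKZF1-ko left of NT control), as log2 CPM relative to the gene's mean, with the colour scale ending at 0.8 in both directions. IKZF1-ko 1 and NT control 2 share a pattern in many rows, seen most strongly in TPP1 and MANBA (high) and ARSB, SORT1 and ATP6V0D1 (low).

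The roles differed in how many members were called, although with 3 to 9 tested members a role these counts were not tested against each other. In the fit with the added term, the proteases had the most calls, with 2 of 8 rising and 4 of 8 falling and a median log2 fold change of -0.18. The proton pump had 2 of 8 falling and a median of -0.11. Glycosidases had 1 of 9 rising and 1 of 9 falling, with a median of -0.08. Of the 7 tested membrane proteins 1 fell, and this was the only role besides the transcription factors with a median above 0, at 0.05. Lipid hydrolases, sulfatases and sorting receptors each had 1 member falling, among 4, 3 and 3 tested, and cofactors had 1 of 3 rising. In the 4 libraries the counts were 2 rising and 4 falling proteases, 2 rising and 2 falling glycosidases, 2 falling membrane proteins and 2 falling pump subunits.

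**Figure D3:**
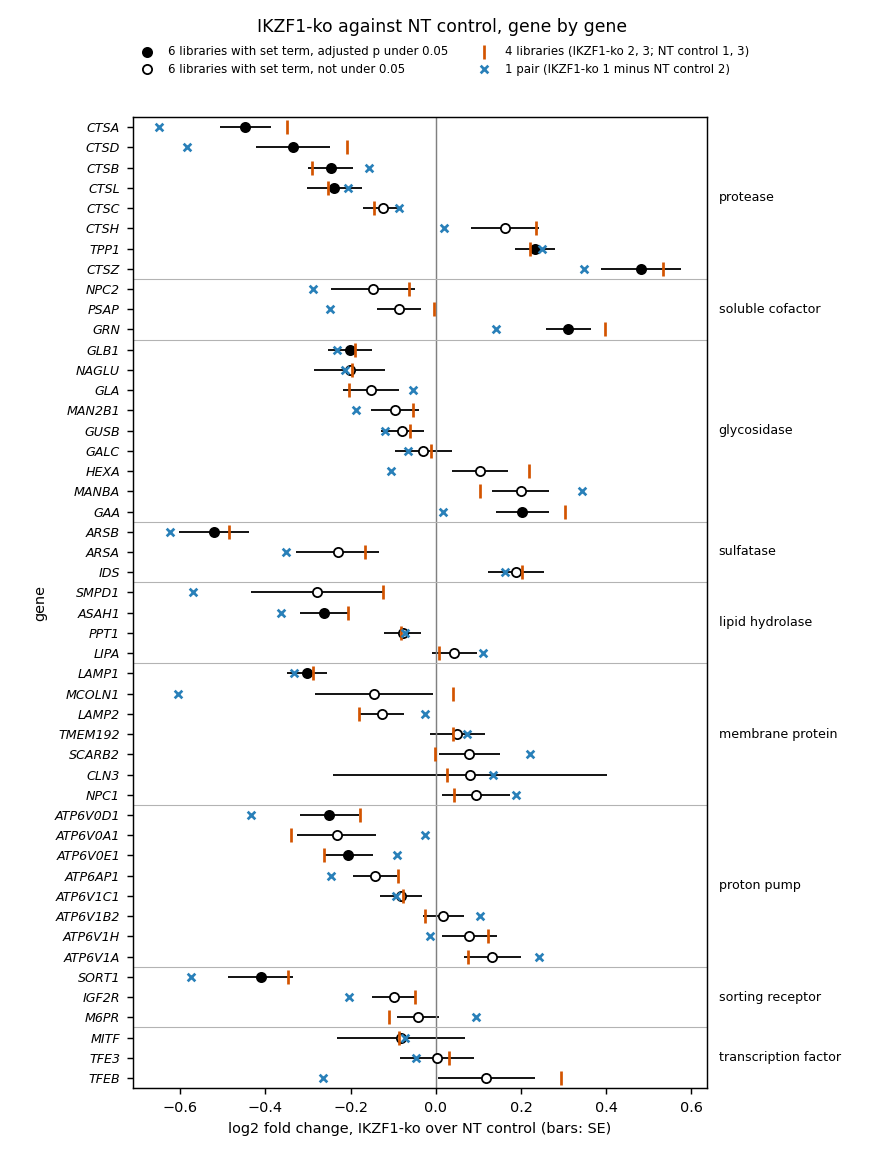
Log2 fold change (IKZF1-ko over NT control) of the 48 tested members by role: points and bars give the edgeR fit with the term for the division between libraries and its standard error, ticks the fit on the 4 libraries alone, and crosses the single difference IKZF1-ko replicate 1 minus NT control replicate 2. Among the points, CTSZ lies farthest to the right at 0.48 and ARSB farthest to the left at -0.52.

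Among the proteases, CTSA, which encodes the serine carboxypeptidase that protects beta-galactosidase and neuraminidase, had the lowest adjusted p of the 48 members. CTSA (ENSG00000064601, chromosome 20, 45890144 to 45898820 on GRCh38) had 83.8, 106 and 103 CPM in IKZF1-ko replicates 1 to 3, against 136, 132 and 129.8 CPM in NT control replicates 1 to 3. Every IKZF1-ko library lay below every NT control library, with the lowest value in IKZF1-ko replicate 1. The log2 fold change was -0.45 (SE 0.06, edgeR adjusted p = 0.000101), and it was -0.35 in the 4 libraries (edgeR adjusted p = 1.64e-05). Of the CTSA exon positions, 28.5% are shared with genes on the opposite strand, and the strand setting of the counting is not given in the sources used here.

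CTSD, the main aspartic protease of lysosomes, had 32.1, 35.5 and 35.3 CPM in the IKZF1-ko libraries, against 37, 48.1 and 44.8 CPM in the NT control libraries. The groups did not overlap, but NT control replicate 1 lay close to the IKZF1-ko values. CTSD fell by 0.34 on the log2 scale (SE 0.09, edgeR adjusted p = 0.0162). This call was lost without IKZF1-ko replicate 1, without NT control replicate 2 and without NT control replicate 3. In the 4 libraries CTSD did not pass (-0.21, edgeR adjusted p = 0.0987). Leaving out IKZF1-ko replicate 1 or NT control replicate 2 nearly repeats that fit. The shared exon positions named above leave its level uncertain.

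CTSB and CTSL encode cysteine proteases with broad substrate ranges. CTSB had 80.2, 98.4 and 94.7 CPM in the IKZF1-ko libraries, against 119.8, 89.5 and 116 CPM in the NT control libraries. Here the groups overlapped, because NT control replicate 2 was the lowest of its group. CTSB fell by 0.25 on the log2 scale (SE 0.05, edgeR adjusted p = 0.00439), a call lost without IKZF1-ko replicate 3. CTSL had 44.0, 48.0 and 44.4 CPM in the IKZF1-ko libraries, against 53.3, 50.9 and 57.0 CPM in the NT control libraries, with no overlap. It fell by 0.24 (SE 0.06, edgeR adjusted p = 0.0197), a call lost without IKZF1-ko replicate 3, without NT control replicate 1 and without NT control replicate 3.

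CTSZ and TPP1 went the other way. CTSZ (chromosome 20, 58995185 to 59007247), a carboxypeptidase of the cysteine cathepsin family, had 17.2, 33.2 and 27.8 CPM in the IKZF1-ko libraries, against 20.8, 13.5 and 21.4 CPM in the NT control libraries. The groups overlapped only through IKZF1-ko replicate 1, which still lay above NT control replicate 2, its counterpart across the division. Its log2 fold change of 0.48 (SE 0.09, edgeR adjusted p = 0.00244) was the highest among the 48 members. TPP1, a tripeptidyl peptidase, had 324, 166 and 175 CPM in the IKZF1-ko libraries, against 149, 272 and 143 CPM in the NT control libraries. Its level followed the division between libraries more than the group: the 2 high values came from 1 library of each group. TPP1 rose by 0.23 on the log2 scale once the division was a term (SE 0.05, edgeR adjusted p = 0.00367), a call lost without IKZF1-ko replicate 3 and with the surrogate variable (0.09, edgeR adjusted p = 0.279).

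CTSC, which activates the serine proteases of granulocytes, passed in the 4 libraries alone, at a log2 fold change of -0.14 (edgeR adjusted p = 0.0265). With all 6 libraries it had -0.12 (edgeR adjusted p = 0.0838). CTSH, an aminopeptidase, was higher in every IKZF1-ko library, with 32.9, 34 and 36.5 CPM against 28.1, 32.5 and 31.8 CPM in the NT control libraries. It did not pass the test in all libraries (0.16, edgeR adjusted p = 0.199) or in the 4 libraries (0.23, edgeR adjusted p = 0.0655).

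The cofactor that changed was GRN (ENSG00000030582, chromosome 17, 44345086 to 44353102), which encodes progranulin, a secreted protein that is also delivered to lysosomes and cut there into granulins. GRN had 409, 411 and 396 CPM in the IKZF1-ko libraries, against 304, 371 and 309 CPM in the NT control libraries. Every IKZF1-ko library lay above every NT control library, and the spread was wider among the controls (405 ± 7.98 CPM in IKZF1-ko and 328 ± 37.4 CPM in NT control, SD, n = 3 each). GRN rose 1.24-fold (log2 0.31, SE 0.05, edgeR adjusted p = 0.000783). In the 4 libraries the log2 fold change was 0.40 (edgeR adjusted p = 5.95e-08), the lowest adjusted p of any member there. PSAP, which yields the saposins that present lipids to hydrolases, had 382, 334 and 322 CPM in the IKZF1-ko libraries, against 333, 454 and 325 CPM in the NT control libraries. Its groups overlapped (-0.09, edgeR adjusted p = 0.309). NPC2, a carrier of cholesterol within the lysosome, had -0.15 (edgeR adjusted p = 0.363).

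**Figure D4:**
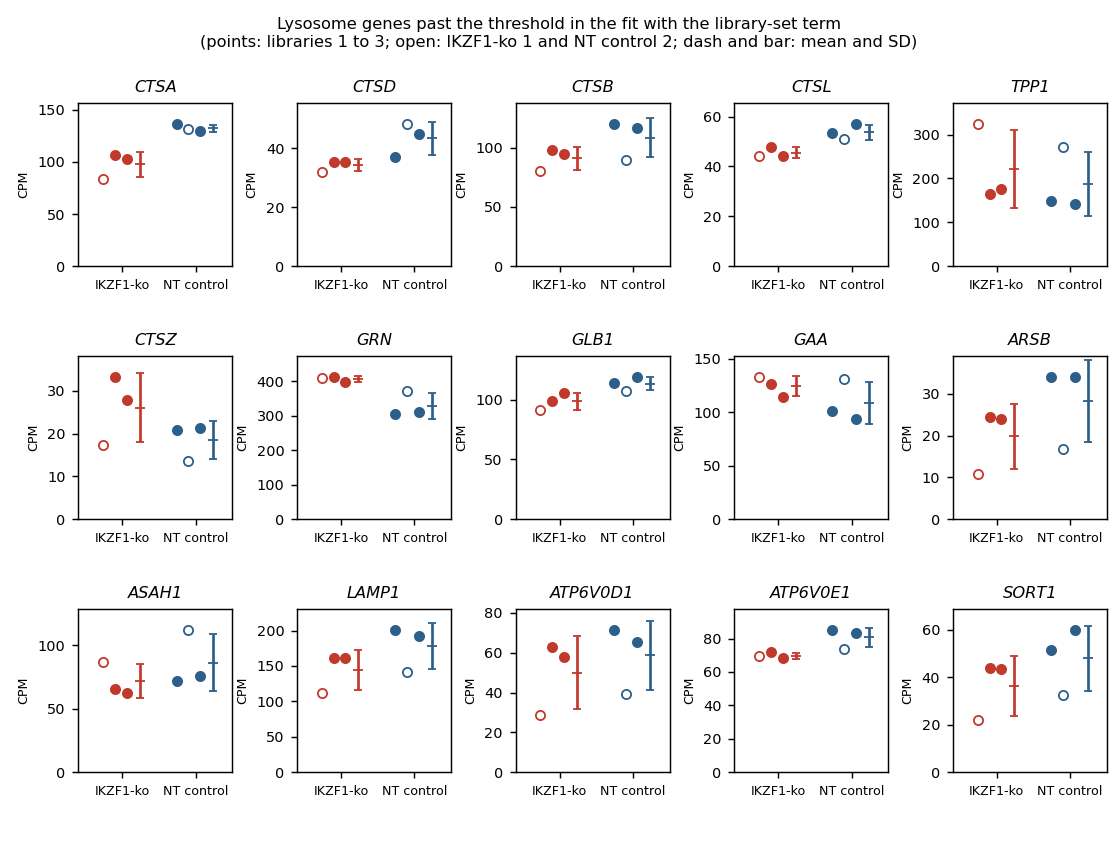
CPM in each library of the 15 members that passed the test with the term for the division between libraries (IKZF1-ko left of NT control in each panel; open points are IKZF1-ko replicate 1 and NT control replicate 2). In GRN, CTSA, CTSD, CTSL, GLB1 and ATP6V0E1 the 3 IKZF1-ko values do not overlap the 3 NT control values, while in TPP1, ARSB, SORT1 and ATP6V0D1 the open points lie apart from the filled ones in both groups.

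Among the glycosidases, GLB1, the lysosomal beta-galactosidase whose activity marks senescent cells, had 91.3, 98.4 and 106 CPM in the IKZF1-ko libraries, against 114, 107 and 119 CPM in the NT control libraries. The groups did not overlap, though IKZF1-ko replicate 3 and NT control replicate 2 were close. GLB1 fell by 0.20 on the log2 scale (SE 0.05, edgeR adjusted p = 0.0145), a call lost without IKZF1-ko replicate 2 and without NT control replicate 3. GAA, the acid alpha-glucosidase that degrades glycogen, had 133, 126 and 114 CPM in the IKZF1-ko libraries, against 101, 131 and 94.1 CPM in the NT control libraries. The groups overlapped, and between IKZF1-ko replicate 1 and NT control replicate 2 GAA differed by only 0.02 on the log2 scale. It rose by 0.20 (SE 0.06, edgeR adjusted p = 0.0407), the weakest of the 15 calls, which was lost in 6 of 14 alternatives, among them the surrogate variable, DESeq2 and leaving out any of the 4 libraries on the larger side of the division.

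In the 4 libraries GAA rose by 0.30 (edgeR adjusted p = 0.000412) and HEXA, the alpha subunit of beta-hexosaminidase, by 0.22 (edgeR adjusted p = 0.0153), while GLA, the alpha-galactosidase deficient in Fabry disease, fell by 0.20 (edgeR adjusted p = 0.0495). GLA was lower in every IKZF1-ko library, with 47.8, 47.3 and 46.0 CPM against 51.4, 49.5 and 56.1 CPM in the NT control libraries. With all libraries HEXA had 0.10 (edgeR adjusted p = 0.341) and GLA -0.15 (edgeR adjusted p = 0.137). MANBA, the beta-mannosidase, had 101, 44.1 and 45.5 CPM in the IKZF1-ko libraries, against 43.6, 79.7 and 39.7 CPM in the NT control libraries. As with TPP1, the high values came from 1 library of each group, and the adjusted p was 0.0568 (log2 fold change 0.20). GUSB, MAN2B1, NAGLU and GALC lay between -0.20 and -0.03 and did not pass.

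The sulfatase ARSB (chromosome 5, 78777209 to 78986087), which removes sulfate from dermatan and chondroitin sulfate, had the lowest fold change of the module. ARSB had 10.9, 24.5 and 24.1 CPM in the IKZF1-ko libraries, against 33.9, 16.9 and 33.9 CPM in the NT control libraries. The groups overlapped because IKZF1-ko replicate 1 and NT control replicate 2 were both low, and on either side of the division every IKZF1-ko library lay below every NT control library. The log2 fold change was -0.52 (SE 0.08, edgeR adjusted p = 0.000402), a fold of 1.44 lower. ARSA, which acts on sulfatides, had -0.23 (edgeR adjusted p = 0.132), and IDS, which acts on heparan and dermatan sulfate, had 0.19 (edgeR adjusted p = 0.0661).

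Of the lipid hydrolases ASAH1, the acid ceramidase, fell. ASAH1 had 87.0, 65.5 and 62.4 CPM in the IKZF1-ko libraries, against 71.8, 112 and 75.7 CPM in the NT control libraries. Here IKZF1-ko replicate 1 and NT control replicate 2 were both high, so the groups overlapped, and the log2 fold change was -0.26 (SE 0.06, edgeR adjusted p = 0.00532). PPT1, which removes palmitate from proteins, was the most abundant of these enzymes, with 308, 282 and 284 CPM in the IKZF1-ko libraries and 298, 324 and 299.7 CPM in the NT control libraries (-0.08, edgeR adjusted p = 0.268). LIPA, the acid lipase of cholesteryl esters, had 0.04 (edgeR adjusted p = 0.65), and SMPD1, the acid sphingomyelinase, had -0.28 (edgeR adjusted p = 0.269).

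Among the membrane proteins, LAMP1 (ENSG00000185896, chromosome 13, 113297241 to 113323672), whose promoter with 6 E-boxes is printed above, had 112, 161 and 161 CPM in the IKZF1-ko libraries, against 200.4, 141 and 192 CPM in the NT control libraries. The groups overlapped, with the library on the smaller side of the division lowest in each group. LAMP1 fell by 0.30 on the log2 scale (SE 0.05, edgeR adjusted p = 0.000378) and by 0.29 in the 4 libraries (edgeR adjusted p = 5.28e-05). LAMP2, its partner, which also serves in chaperone-mediated autophagy, had 235, 192 and 212 CPM in the IKZF1-ko libraries, against 229, 239 and 227 CPM in the NT control libraries. It fell in the 4 libraries (-0.18, edgeR adjusted p = 0.0103) and did not pass with all of them (-0.13, edgeR adjusted p = 0.121).

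The other 5 tested membrane proteins passed in neither fit. SCARB2, an abundant protein of the lysosomal membrane, had a log2 fold change of 0.08, and the cholesterol transporter NPC1 had 0.09. TMEM192 had 0.05, the calcium channel MCOLN1 had -0.15, and CLN3, whose counts were near the filter, had 0.08 with a standard error of 0.32.

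For the proton pump, the subunits of the membrane sector V0 and of the catalytic sector V1 were set side by side. In V0, ATP6V0E1 had 69.4, 71.8 and 68.3 CPM in the IKZF1-ko libraries, against 84.9, 73.8 and 83.0 CPM in the NT control libraries. The groups did not overlap, and ATP6V0E1 fell by 0.21 on the log2 scale (SE 0.06, edgeR adjusted p = 0.0237). ATP6V0D1, the subunit that couples the sectors, had 28.9, 62.8 and 58.0 CPM in the IKZF1-ko libraries, against 71.3, 39.1 and 65.5 CPM in the NT control libraries. Its groups overlapped, with the library on the smaller side of the division low in each group, and it fell by 0.25 (SE 0.07, edgeR adjusted p = 0.0234). Each of these calls was lost in 5 of 14 alternatives. For ATP6V0D1 they included leaving out IKZF1-ko replicate 1 or NT control replicate 2, which nearly repeat the fit on the 4 libraries. In the 4 libraries ATP6V0E1 passed (-0.26, edgeR adjusted p = 0.00243) and ATP6V0D1 did not (-0.18, edgeR adjusted p = 0.0647).

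ATP6V0A1, a proton channel subunit with 21.1, 18.9 and 17.9 CPM in the IKZF1-ko libraries and 24.1, 21.4 and 22.5 CPM in the NT control libraries, was lower in every IKZF1-ko library. It passed in the 4 libraries (-0.34, edgeR adjusted p = 0.0223) and not with all of them (-0.23, edgeR adjusted p = 0.109). All 4 subunits of V1 failed the test in both fits: ATP6V1A had a log2 fold change of 0.13, ATP6V1B2 0.02, ATP6V1C1 -0.08 and ATP6V1H 0.08. The accessory subunit ATP6AP1 had -0.14 (edgeR adjusted p = 0.0735). The difference between the sectors was not tested.

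Of the sorting receptors, SORT1, which encodes sortilin and carries progranulin and prosaposin to lysosomes, had 21.9, 44.0 and 43.3 CPM in the IKZF1-ko libraries, against 51.2, 32.6 and 59.8 CPM in the NT control libraries. The groups overlapped through NT control replicate 2, and on each side of the division every IKZF1-ko value lay below every NT control value. SORT1 fell by 0.41 on the log2 scale (SE 0.08, edgeR adjusted p = 0.0016) in the same libraries in which GRN rose. The mannose phosphate receptors M6PR (-0.04, edgeR adjusted p = 0.649) and IGF2R (-0.10, edgeR adjusted p = 0.214), both more abundant than SORT1 per kilobase, did not pass.

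The transcription factors did not pass in any fit. TFEB, the main activator of lysosomal genes, had 13.1, 19.1 and 21.2 CPM in the IKZF1-ko libraries, against 17.1, 15.8 and 15.7 CPM in the NT control libraries (0.12, SE 0.11, edgeR adjusted p = 0.555). IKZF1-ko replicates 2 and 3 lay above all NT control libraries and replicate 1 below them, and in the 4 libraries the log2 fold change was 0.29 (edgeR adjusted p = 0.0714). TFE3 averaged 20.5 ± 2.51 CPM in the IKZF1-ko libraries and 20.5 ± 3.08 CPM in the NT control libraries (SD, n = 3 each), and MITF averaged 6.37 ± 1.98 CPM in the IKZF1-ko libraries and 6.73 ± 2.01 CPM in the NT control libraries. The sign of TFE3 flipped with RLE size factors, and the signs of TFE3 and MITF flipped with the surrogate variable and without IKZF1-ko replicate 2, so no direction is given for them. These are mRNA levels, and the activity of TFEB and TFE3 is controlled largely through their phosphorylation and location, which were not measured.

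The list of 136 other genes of the pathway, of which 130 were tested, gave 7 rising (5.38%) and 16 falling (12.3%) with the added term, compared with 6.93% and 6.62% of all genes. Their median log2 fold change was -0.04. Among 12 other pump subunits ATP6V0B fell the most, with 53.9, 98.5 and 99.1 CPM in the IKZF1-ko libraries, against 137, 76.6 and 136 CPM in the NT control libraries (-0.48, SE 0.05, edgeR adjusted p = 6.4e-06). TCIRG1, which encodes another isoform of the proton channel subunit given by ATP6V0A1, rose, with 244, 167 and 164 CPM in the IKZF1-ko libraries, against 133, 174 and 128 CPM in the NT control libraries (0.39, SE 0.05, edgeR adjusted p = 5.9e-05). Per kilobase, TCIRG1 was the main isoform in both groups, with 43.7 CPM per kilobase in IKZF1-ko and 33.1 in NT control, while ATP6V0A1 had 1.76 in IKZF1-ko and 2.07 in NT control, and ATP6V0A2 had 2.21 in IKZF1-ko and 2.47 in NT control. The E-box was present in a promoter window of 26 of 104 of these other genes (25%), counted by gene as for the members.

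The counts by list are small and are to be read against the same shares of all genes. Among 26 other hydrolases 3 rose and 3 fell, and the ribonuclease RNASET2 was among those that rose (0.24, edgeR adjusted p = 0.012). Of 19 other membrane proteins LAPTM4B (-0.30) and the tetraspanin CD63 (-0.23) fell and the channel TPCN1 (0.31) rose. Of 17 genes for tagging and sorting NAGPA (-0.29) and GNPTAB (-0.21), which make the mannose phosphate tag, fell and none rose. Of 19 genes of nutrient sensing at the lysosome 2 rose and 4 fell, with the kinase MTOR at -0.23 and the scaffold subunit LAMTOR1 at -0.25. Of 28 genes of fusion and autophagy ULK1 (-0.25), BECN1 (-0.19) and VAMP8 (-0.17) fell and none rose, and of 9 other proteases SCPEP1 (-0.27) fell.

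In all 14 alternatives run for each gene, 7 of the 15 called members kept their side of the threshold: CTSA, CTSZ, GRN, ARSB, ASAH1, LAMP1 and SORT1. The other 8 lost it in at least 1 alternative, and none of the 15 changed sign. The alternatives are not independent of each other. Leaving out IKZF1-ko replicate 1 or NT control replicate 2 leaves a lone library on the smaller side of the division, which the term absorbs. Both therefore nearly repeat the fit on the 4 libraries, as in CTSA (-0.3481 and -0.3484, against -0.349 there).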

How the data were processed

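Polyadenylated RNA of 6 libraries was sequenced with a stranded mRNA kit, per the labels' protocols. The authors deposited whole-number read counts per Ensembl gene, unscaled. The submitters' processing notes name Trimmomatic, STAR and GRCh38. No source used here names the counter, its strand setting or the annotation, and 23 members share exon positions with another gene in GENCODE release 29, which gave positions and exon lengths.

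The members and all lists were chosen with earlier results of these data known. The test was edgeR 4.0.16 in R 4.3.3, with filterByExpr, TMM and the quasi-likelihood F test, two-sided. Benjamini-Hochberg adjustment ran over all 13028 genes, or 12951 in the 4 libraries, at a threshold of 0.05. On simulated data, with the library set given as known, group alone recovered 0% of changes of 1.25-fold or 1.5-fold. With the set as a term 16% and 58% were recovered, and in the 4 libraries 8% and 44%. Of the calls, 9 of 136 and 9 of 119 were false. The simulated spread came from a fit without the group. Far fewer genes were called than in the data, where the set as a term gave 1765 calls. The shares recovered may therefore not hold for the data. A member that did not pass may still have changed by such a fold. The library set was the sign of the first principal component of log2 CPM (prior count 2), so it comes from the same counts and its p-values take it as known. SE is the log2 fold change over the square root of F. Members were named from the list, and up to 3 other genes per list by lowest adjusted p; some genes named by this rule are not reported here. Totals were 11300519 to 18214328 counts. A count of 0 allows up to 3 counts, for counting error only. Alternatives were other scaling, filters, DESeq2 1.42.0, limma-voom 3.58.1, 1 surrogate variable (sva 3.50.0), a replicate block and leaving out each library.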

Additional observations from a re-analysis of the deposited data

How the results depend on the processing

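With group alone, 0 members passed in either direction under every alternative. In the fit with the library set as a term, which called 4 rising and 11 falling members, the surrogate variable called 2 rising, and leaving out 1 library gave 2 to 5 rising and 7 to 13 falling. In the 4 libraries, which called 5 rising and 13 falling, DESeq2 called 6 falling, and leaving out 1 library, after which a lone sample is assumed to vary like the other group, gave 4 to 6 rising and 8 to 12 falling. The cause was not tested. The log2 fold change of TFE3 (0.0026) reversed to -0.0071 with RLE size factors, -0.0065 with DESeq2, -2.79e-05 with limma-voom, -0.046 with the surrogate variable, and gave -0.038 to 0.032 with 1 library left out. That of MITF (-0.082) reversed to 0.040 with the surrogate variable and gave -0.19 to 0.019 with 1 library left out. The 7 members with a mean under 10 CPM rest on the fewest counts, and 3 of them could not be tested. The part of depth and of the counting in these low values was not tested.

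Same-numbered samples had deviations from their group means correlated at -0.655, -0.689 and 0.588. The division between libraries enters these deviations, and IKZF1-ko replicate 1 and NT control replicate 2 carry different numbers. The division alone would give these signs, so the correlations cannot show whether the replicate numbers pair the samples. A fit with the replicate number as a block called 0 members with group alone. With the library set as a term as well, it called 6 rising and 16 falling members. Over all genes that fit called 1459 rising and 1483 falling, against 903 and 862 without the block. Its terms take up most of the 6 libraries, so little spread is left to judge a difference against. No paired analysis was possible in the 4 libraries because the groups there share only number 3.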
